A study of Mus musculus with 11 samples.

Results

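S100a8, S100a9, Lcn2, Csf3r, Ly6g, Ngp, Camp, Ltf, Retnlg and Mpo are transcripts of neutrophil granules, cytosol and surface, and they were read here in injured mouse arteries. They are 10 of the 48897 genes of the deposited count table, taken by symbol, and all 10 kept enough counts to be tested among 21343 genes. Polyadenylated RNA was sequenced from tissue collected on day 7 after injury in 4 groups. The femoral artery had been injured with a wire in 3 control and 3 knockout samples, and the carotid artery had been ligated in 3 control and 2 knockout samples. Knockout animals were Nrf3-/- and controls were flox mice, so the control arteries also came from animals with an engineered allele. No Cre driver, strain, sex or age is given in the sources used here, and nothing says that replicates were separate animals, so p-values measure the spread between these samples, which may be technical.

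Neutrophils are short-lived white cells that reach injured tissue from the blood within hours and carry their defence proteins in granules filled one kind after another during maturation in the bone marrow. Mpo, the myeloperoxidase of primary granules, is transcribed at the promyelocyte stage; Ngp, Camp and Ltf, proteins of the specific granules, follow at the myelocyte stage; S100a8, S100a9, Csf3r and Retnlg transcripts are abundant in mature cells. Some of these genes are not confined to neutrophils: monocytes also make S100a8 and S100a9, and inflamed epithelial and vascular cells can make Lcn2.

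All 10 genes matched the RefSeq promoter table (GRCm38.p6), which holds the 250 bases before and the 50 bases after each annotated start. Each window was searched on both strands for TTGCNNAA, a core of the sites of C/EBP factors, GAGGAA, a core of the sites of PU.1, and TAAATCAC, a GFI1 core; these factors direct granulocyte development. Promoters of Ngp (chr9:110419558-110419857, plus strand) and Ltf (chr9:111019042-111019341, plus strand) are printed because these neighbouring genes varied most alike among the granule genes. Those of S100a8 (chr3:90668821-90669120, plus strand), S100a9 (chr3:90695672-90695971, minus strand) and Lcn2 (chr2:32387690-32387989, minus strand) are printed because these genes stood higher in knockout arteries. Each runs 5′ to 3′ along the gene's own strand, and capitals mark matches to TTGCNNAA or GAGGAA, on either strand.
Ngp: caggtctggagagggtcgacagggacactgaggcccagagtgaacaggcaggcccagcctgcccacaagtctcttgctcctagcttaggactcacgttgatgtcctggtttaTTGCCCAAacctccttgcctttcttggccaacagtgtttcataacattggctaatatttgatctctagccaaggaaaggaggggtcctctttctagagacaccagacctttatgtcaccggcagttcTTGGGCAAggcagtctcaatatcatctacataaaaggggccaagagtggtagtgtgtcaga
Ltf: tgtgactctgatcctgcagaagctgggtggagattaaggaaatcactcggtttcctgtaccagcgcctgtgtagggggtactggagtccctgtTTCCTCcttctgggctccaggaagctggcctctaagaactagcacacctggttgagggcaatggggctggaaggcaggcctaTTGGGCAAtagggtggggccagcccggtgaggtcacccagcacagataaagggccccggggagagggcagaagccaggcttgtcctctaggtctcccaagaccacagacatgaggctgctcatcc
S100a8: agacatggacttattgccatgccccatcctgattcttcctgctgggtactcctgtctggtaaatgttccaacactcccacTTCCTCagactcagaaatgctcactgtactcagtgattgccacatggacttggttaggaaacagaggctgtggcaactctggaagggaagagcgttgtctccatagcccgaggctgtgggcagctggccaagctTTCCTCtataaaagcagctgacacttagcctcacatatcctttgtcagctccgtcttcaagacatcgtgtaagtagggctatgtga
S100a9: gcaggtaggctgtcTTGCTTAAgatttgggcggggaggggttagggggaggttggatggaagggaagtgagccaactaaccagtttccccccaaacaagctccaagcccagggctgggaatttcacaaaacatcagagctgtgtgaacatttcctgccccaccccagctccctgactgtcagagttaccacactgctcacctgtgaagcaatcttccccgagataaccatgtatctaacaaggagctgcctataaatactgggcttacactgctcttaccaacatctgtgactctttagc
Lcn2: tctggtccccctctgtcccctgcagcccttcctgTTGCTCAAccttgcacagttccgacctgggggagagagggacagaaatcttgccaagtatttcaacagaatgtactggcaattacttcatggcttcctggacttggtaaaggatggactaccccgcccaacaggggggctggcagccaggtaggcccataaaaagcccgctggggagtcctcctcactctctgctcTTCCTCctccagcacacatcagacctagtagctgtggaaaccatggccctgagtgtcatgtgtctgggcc

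TTGCNNAA was matched in 6 of the 10 genes (S100a9, Lcn2, Ly6g, Ngp, Ltf and Retnlg) and in 10.8% of all 32851 promoters of the same length. Ngp held it at −138 to −131 and, on the other strand, at −11 to −4, counting the annotated start as 0. Ltf held it at −75 to −68, and this match and the one nearest the start of Ngp read TTGGGCAA alike. GAGGAA was matched in 6 of 10 (S100a8, Lcn2, Csf3r, Ly6g, Ltf and Mpo) and in 28.3% of all promoters, with S100a8 holding it at −170 to −165 and at −36 to −31. TAAATCAC was in none of the 10 windows and in 0.578% of all, and no match overlapped another. Camp held none of the 3 motifs. A match describes letters in the window and not a bound site.

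Library totals ran from 43698644 to 55998563 counts, and each knockout library (at most 49671909) was below each control library (at least 51067573). The part of this depth difference in the results was not tested. Counts of the targeted gene Nfe2l3, which encodes Nrf3, were 48, 81 and 37 for the femoral controls against 11, 2 and 0 for the knockouts, and in the carotid artery every knockout library was also below every control library. Levels are CPM, counts scaled to library size by the trimmed mean of M-values. Changes are log2 differences ± SE from edgeR's quasi-likelihood fit over all 11 libraries, with Benjamini-Hochberg adjusted p over the 21343 genes, called under 0.05.

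In the femoral artery, the mean levels of Lcn2, Csf3r, S100a9, S100a8, Ly6g and Retnlg were higher in knockout than in control samples, while Ngp, Ltf, Camp and Mpo had negative changes of less than 2 SE each. None of the 10 genes passed edgeR's quasi-likelihood test without a replicate block, in a comparison where 2.51% of all genes passed. At an unadjusted p under 0.05 there were 5, all higher in the knockout (Lcn2, Csf3r, Ly6g, S100a9 and S100a8), against 10.9% of all genes higher at that p. Same-numbered femoral control and knockout samples deviated together across genes, but the labels do not say that they are paired. Same-numbered carotid samples showed no such sign. If the replicate number is taken as a block, 4 of the 10 were called higher (S100a8, S100a9, Lcn2 and Csf3r), as were 4.29% of all genes. All results with the block, here and below, rest on that unstated pairing. DESeq2 called 3 higher (Lcn2, Csf3r and Ly6g) and 5.88% of all genes higher. The median change over the 10 was 1.22 on the log2 scale, against −0.02 over all genes tested, with 6 positive and 4 negative values where 46.9% of all genes were positive. Without femoral knockout replicate 2 this median was 0.56, and without femoral control replicate 2 it was 1.52 with 9 positive values. In bulk tissue, more cells of a type and more RNA per cell cannot be told apart, and neither can fewer cells and less RNA per cell.

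**Figure D1:**
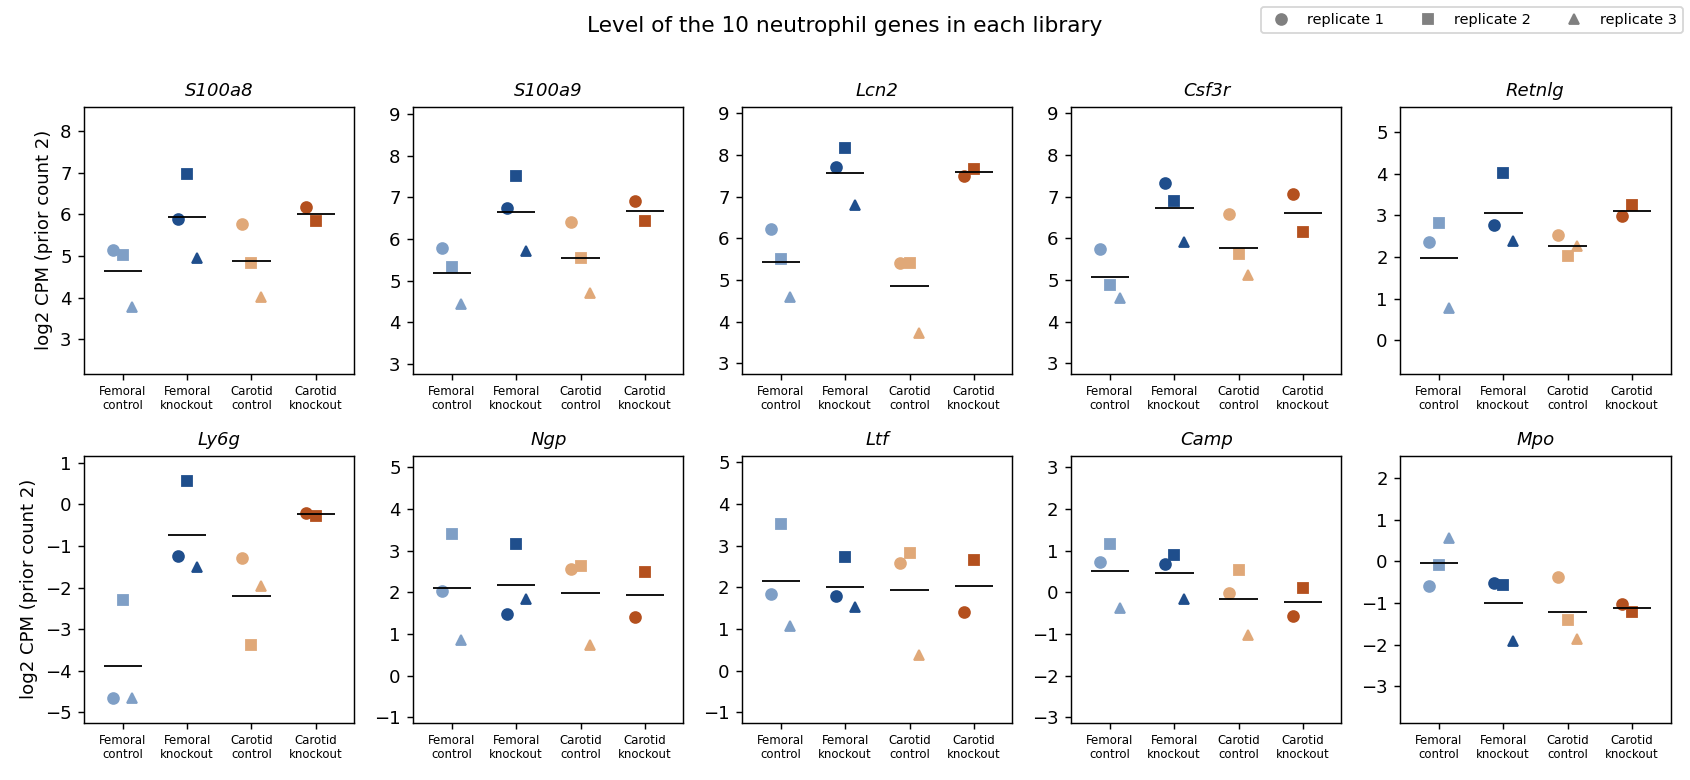
Log2 CPM (prior count 2) of each of the 10 genes in each library, by group, with a marker shape for the replicate number and a bar at the group mean; each panel spans the same log2 range. The femoral knockout samples sit above the femoral controls for Lcn2, Csf3r and Ly6g, and the groups overlap for Ngp, Ltf, Camp and Mpo.

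S100a8 and S100a9 encode the 2 subunits of calprotectin, a calcium- and zinc-binding protein that makes up much of the neutrophil cytosol. S100a8 (NCBI gene 20201; chr3:90669071-90670034, plus strand, GRCm38) was at 35.4, 32.2 and 13.7 CPM in the femoral controls and 59.3, 125 and 31.1 CPM in the femoral knockouts. Knockout replicate 3 lay within the control range and the other 2 knockout samples above it. The means were 27.1 ± 11.7 and 71.9 ± 48.4 CPM (SD, n = 3 each), a change of 1.41 ± 0.55 (adjusted p 0.189), and with the replicate block the rise was 1.30 ± 0.23 (adjusted p 0.0240). S100a8 was not called when the block took the number of 1 carotid knockout sample from its description. Without the block and without knockout replicate 2 the change was 0.74. S100a9 (NCBI gene 20202; chr3:90692630-90695721, minus strand) was at 55.0, 40.4 and 21.6 CPM in the controls and 107, 181 and 52.4 CPM in the knockouts. Again only knockout replicate 3 lay within the control range. The S100a9 change was 1.54 ± 0.51 (adjusted p 0.133), and 1.47 ± 0.22 with the block (adjusted p 0.0143). Within same-numbered pairs the knockout held 1.68, 3.89 and 2.27 times the S100a8 level of the control and 1.94, 4.49 and 2.43 times the S100a9 level.

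Lcn2 encodes lipocalin 2, which binds bacterial siderophores and is stored in specific granules. It (NCBI gene 16819; chr2:32384637-32387739, minus strand) was at 75.2, 45.6 and 24.0 CPM in the femoral controls and 211, 288 and 112 CPM in the femoral knockouts. All 3 knockout samples lay above all controls. The means were 48.3 ± 25.7 and 203 ± 88.3 CPM, a change of 2.08 ± 0.51 (adjusted p 0.0585), and with the block Lcn2 rose by 2.12 ± 0.21 (adjusted p 0.00426). The same-numbered ratios were 2.80, 6.32 and 4.66.

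Csf3r encodes the receptor for granulocyte colony-stimulating factor, the main growth factor of the lineage. It (NCBI gene 12986; chr4:126023441-126044975, plus strand) was at 53.4, 29.4 and 23.6 CPM in the femoral controls and 162, 119 and 60.5 CPM in the femoral knockouts, again without overlap. The change was 1.68 ± 0.47 (adjusted p 0.0854), and with the block Csf3r rose by 1.66 ± 0.13 (adjusted p 0.0022). Same-numbered ratios of 3.03, 4.05 and 2.56 were the least spread of the genes that rose. The transcript of its ligand, Csf3, chosen for mention after its values were seen, was at 1.10 ± 0.951 CPM in the femoral controls and 14.4 ± 6.75 CPM in the knockouts (3.70 ± 0.94, adjusted p 0.0631).

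Ly6g, the surface protein used to identify mouse neutrophils, belongs to a family of near-identical genes, so its counts are uncertain where the counting could split reads between copies. The gene (NCBI gene 546644; chr15:75155261-75159128, plus strand) was counted 0, 8 and 0 times in femoral control samples, against 18, 64 and 15 times in knockout samples. All knockout samples lay above all controls, at 0.381, 1.44 and 0.311 CPM, while a count of 0 allows up to 0.0568 and 0.0551 CPM in control replicates 1 and 3, for counting error only. The fitted change was 3.70 ± 1.15 (adjusted p 0.111) and 4.20 ± 0.96 with the block (adjusted p 0.0550). It was 2.66 without knockout replicate 2 and 8.17 without control replicate 2, when both remaining controls are at 0 and the value depends on the prior count. Retnlg, a resistin-like secreted protein of mature mouse neutrophils (NCBI gene 245195; chr16:48872608-48874498, plus strand), was at 5.11, 7.06 and 1.67 CPM in the controls and 6.83, 16.3 and 5.20 CPM in the knockouts. These ranges overlapped, and the change was 1.03 ± 0.50 (adjusted p 0.288), or 1.08 ± 0.27 with the block (adjusted p 0.0685), and 0.38 without knockout replicate 2 or 0.64 without control replicate 3.

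Of the specific granule genes, Lcn2 on chromosome 2 was described above, and the other 3, all on chromosome 9, overlapped between the groups. Ngp, neutrophilic granule protein (NCBI gene 18054; chr9:110419808-110423012, plus strand), was at 4.05, 10.6 and 1.78 CPM in the femoral controls and 2.77, 8.95 and 3.52 CPM in the knockouts. Ltf, the iron-binding lactoferrin (NCBI gene 17002; chr9:111019292-111042766, plus strand), was at 3.56, 11.5 and 2.08 CPM and then 3.40, 6.56 and 2.82 CPM. Replicate 2 was the highest sample of each group for both genes, and the groups overlapped. Camp, the cathelicidin antimicrobial peptide (NCBI gene 12796; chr9:109847377-109849456, minus strand), was at 1.61, 2.20 and 0.735 CPM in the controls and 1.56, 1.83 and 0.850 CPM in the knockouts, with replicate 2 highest once more. Their changes were −0.11 ± 0.69 for Ngp, −0.42 ± 0.71 for Ltf and −0.10 ± 0.50 for Camp (adjusted p 0.957, 0.802 and 0.944 by edgeR). The sign of each changed without femoral control replicate 2, when the changes were 0.80 for Ngp, 0.28 for Camp and 0.60 for Ltf, and the block gave 0.046 for Ngp. Mpo (NCBI gene 17523; chr11:87793784-87804412, plus strand) was at 0.625, 0.895 and 1.43 CPM in the controls and 0.655, 0.631 and 0.228 CPM in the knockouts (−0.96 ± 0.53, adjusted p 0.359), with overlapping groups.

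Without a filter on low counts 3 of the 10 passed in the femoral artery (S100a9, Lcn2 and Csf3r), all higher, as did 2.36% of all genes. The same 3 passed without femoral knockout replicate 3, Lcn2 alone passed without carotid control replicate 3, and none passed on leaving out any other library.

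**Figure D2:**
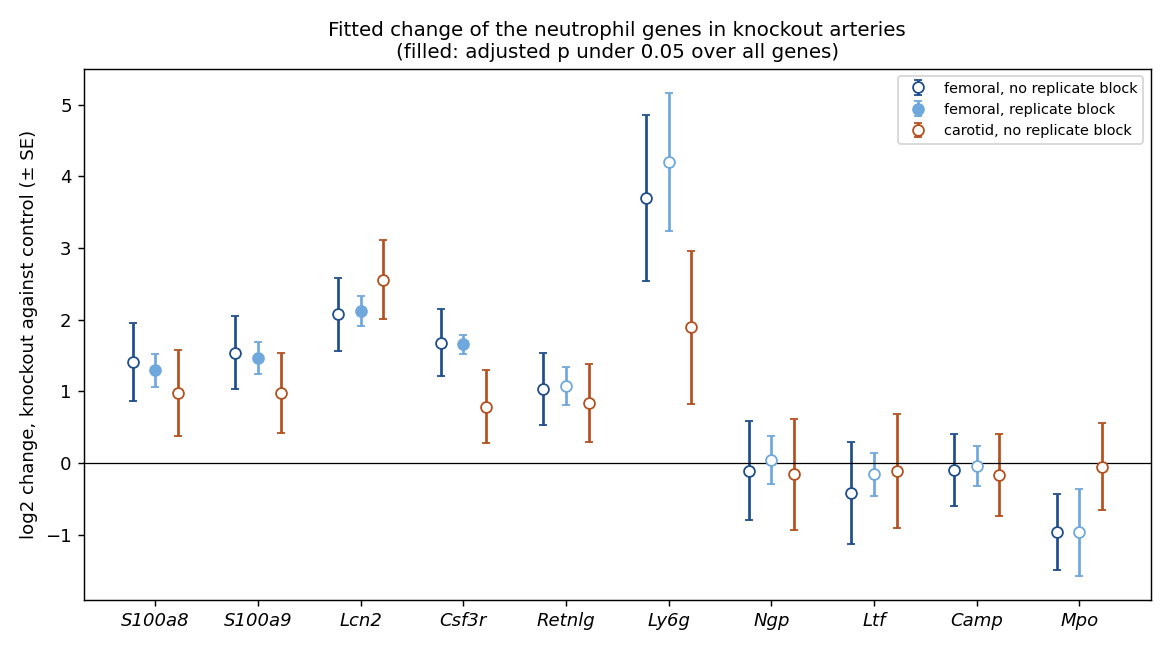
Fitted log2 change of each gene in knockout against control arteries (points, with bars of 1 SE) for the femoral artery without and with the replicate block and for the carotid artery without it; filled points passed the adjusted p threshold over all genes. S100a8, S100a9, Lcn2 and Csf3r are filled in the blocked femoral fit, and the points for Ngp, Ltf and Camp lie near 0.

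In the ligated carotid artery, none of the 10 genes passed edgeR's test, in a comparison where 0.923% of all genes passed. Lcn2 was the one gene at an unadjusted p under 0.05 (0.000786), where 7.93% of all genes were higher at that p. It was also the one called by DESeq2 (adjusted p 0.00179), which called 2.6% of all genes higher. Lcn2 was at 42.3, 42.6 and 13.3 CPM in the carotid controls and 182 and 203 CPM in the carotid knockouts. Both knockout samples lay far above all 3 controls, with a change of 2.56 ± 0.55 (adjusted p 0.0617). The median change over the 10 was 0.81, against 0.00 over all genes, with 6 positive and 4 negative values where 50.5% of all genes were positive. Without carotid knockout replicate 1 the median was 0.54, and 9 values were positive without it or without carotid control replicate 1 or 2.

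S100a8 was at 54.5, 28.2 and 16.1 CPM in the carotid controls and 72.7 and 56.7 CPM in the knockouts (0.98 ± 0.59, adjusted p 0.501). S100a9 was at 85.5, 46.2 and 25.9 CPM and then 121 and 85.7 CPM (0.98 ± 0.55, adjusted p 0.464). For both, the lower knockout sample was close to the highest control. Without carotid control replicate 1 the changes were 1.55 and 1.52, and without replicate 3 they were 0.65 for each. Ly6g was counted 19, 3 and 12 times in control samples, against 40 and 40 times in knockout samples (1.89 ± 1.07, adjusted p 0.460). Retnlg was at 5.71, 4.01 and 4.77 CPM in the controls and 7.87 and 9.44 CPM in the knockouts (0.84 ± 0.55, adjusted p 0.529). In all, 5 of the 10 genes had every carotid knockout sample above every control (S100a8, S100a9, Lcn2, Ly6g and Retnlg), as did 16.4% of all genes, and none had every knockout sample below, as 15% of all genes did. The same count in the femoral artery was 3 above (Lcn2, Csf3r and Ly6g), as for 13.3% of all genes, and 0 below, as for 12.1%.

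Csf3r overlapped in the carotid artery, at 95.2, 48.8 and 34.5 CPM in the controls and 135 and 70.4 CPM in the knockouts (0.78 ± 0.51, adjusted p 0.528), and its change ran from 0.24 without carotid knockout replicate 1 to 1.30 without carotid control replicate 1. Ngp was at 5.82, 6.19 and 1.62 CPM in the controls and 2.62 and 5.52 CPM in the knockouts. Ltf, Camp and Mpo overlapped likewise, and the changes of these 4 genes were −0.17 to −0.05 (adjusted p 0.935 to 0.984 by edgeR). The carotid change was smaller than the femoral one for Csf3r, S100a8, S100a9, Ly6g and Retnlg and larger for Lcn2, but none of these differences between vessels passed edgeR's test of the difference itself. The 10 differences were −1.80 ± 1.57 (Ly6g) to 0.91 ± 0.81 (Mpo), with adjusted p of 0.746 to 0.996 and none at an unadjusted p under 0.05, where 8.5% of all genes were and 0.00469% passed. DESeq2 also called none of them, and 0.949% of all genes.

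Between vessels in control arteries, none of the 10 genes passed edgeR's test or had an unadjusted p under 0.05, where 6.21% of all genes passed and 20.2% had such a p. Csf3r was at 35.5 ± 15.8 CPM in the femoral and 59.5 ± 31.7 CPM in the carotid controls (SD, n = 3 each; 0.75, adjusted p 0.410). Between knockout arteries none passed either, or had an unadjusted p under 0.05, where 4.91% and 19.7% of all genes did, and the changes ran from −0.75 (Camp) to 0.18 (Ly6g). DESeq2 called none in either comparison, and 10.9% and 9.99% of all genes. Within each genotype the 2 vessels overlapped for all 10 genes, whereas 11.7% of all genes were wholly above and 13.6% wholly below in the control carotid arteries, and 18.6% and 18.3% in the knockout ones.

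Per kilobase of annotated transcript, S100a9, S100a8 and Lcn2 led in every group. In the femoral controls they stood at 74.4, 69.1 and 56.6 CPM per kb, and in the femoral knockouts at 217, 183 and 238 CPM per kb. Retnlg, Csf3r and Ngp followed in the femoral controls, at 7.59, 6.35 and 4.71 CPM per kb, and Camp, Ltf, Mpo and Ly6g were at 2.53, 2.08, 0.387 and 0.0579 CPM per kb. The ranges of mean ± SD of neighbours in this order overlapped in the femoral controls, except at the steps from Lcn2 to Retnlg and from Mpo to Ly6g. In the carotid arteries S100a9 was at 100 CPM per kb in controls and 197 in knockouts, and Lcn2 at 38.3 and 225. Lcn2 thus went from below S100a8 to above it, per kilobase, in both vessels. The Lcn2-to-S100a8 ratio of per-kilobase levels was 0.978, 0.650 and 0.805 for femoral controls, against 1.63, 1.06 and 1.65 for femoral knockouts. It was 0.357, 0.694 and 0.380 for carotid controls, against 1.15 and 1.64 for carotid knockouts, so the groups did not overlap in either vessel. The share of gene pairs that separate in this way was not computed, for this ratio or for the S100a8-to-Ngp ratio below.

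Among themselves, S100a8 with S100a9 and Ngp with Ltf varied most alike. Likeness was measured as the root-mean-square difference between log2 CPM profiles over the 11 libraries, each centred on its own mean. S100a8 and S100a9, 22.6 kb apart on chromosome 3, differed by 0.13 log2 units, and their per-kilobase ratio stayed at 0.939 to 1.35 in all 11 libraries. Ngp and Ltf, 596 kb apart on chromosome 9, differed by 0.25, and the Ltf-to-Ngp ratio stayed at 0.310 to 0.520. Camp, 570 kb from Ngp, differed by 0.52 from either. S100a9 and Csf3r, on different chromosomes, differed by 0.34, and S100a8 and Ngp by 0.85. Lcn2 differed by at least 0.72 from each of the other 9 genes, Mpo by at least 0.76 and Ly6g by at least 1.10.

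The S100a8-to-Ngp ratio of per-kilobase levels was 25.9, 9.02 and 22.7 for femoral controls, against 63.4, 41.5 and 26.1 for femoral knockouts. It was 27.7, 13.5 and 29.4 for carotid controls, against 82.3 and 30.4 for carotid knockouts. Every knockout sample was above every control of its vessel, with the nearest samples close together. The mean log2 CPM of Mpo, Ngp, Camp and Ltf minus that of S100a8, S100a9, Csf3r and Retnlg sums this up as early-made against late-made transcripts. It was −3.76, −2.52 and −2.85 for femoral controls, against −4.83, −4.80 and −4.43 for femoral knockouts, without overlap. In the carotid artery it was −4.13, −3.34 and −4.46 for controls, against −5.48 and −4.40 for knockouts, with overlap. These genes were grouped with their results known, so no test is given. Lcn2, also a specific granule gene, was in neither set, and its changes were 2.08 (femoral) and 2.56 (carotid). The separation thus holds for the genes chosen. The wider lists of primary granule and of specific and gelatinase granule genes, given below, had positive femoral medians of 0.54 and 1.33.

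**Figure D3:**
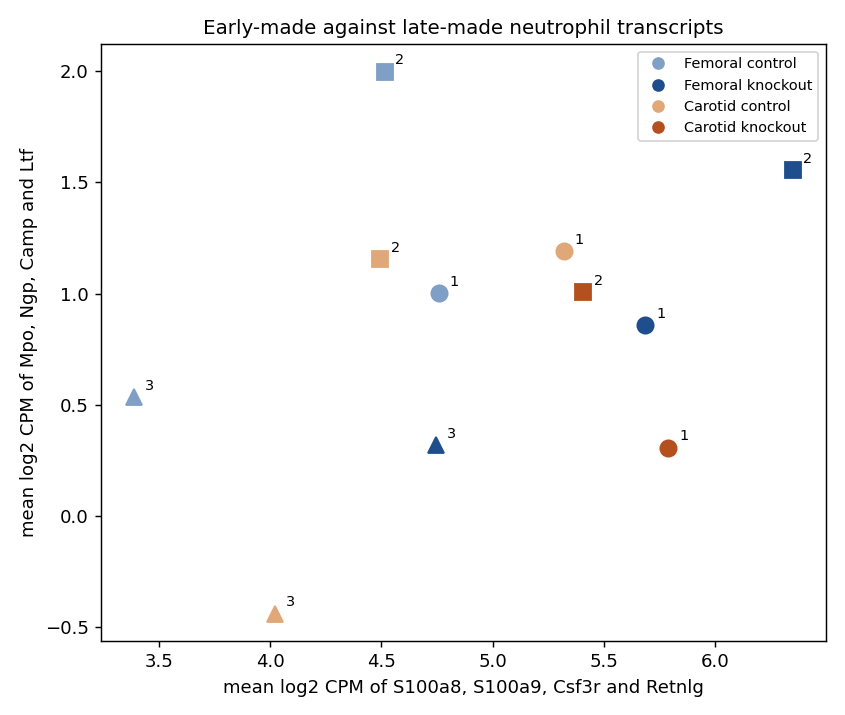
Mean log2 CPM of Mpo, Ngp, Camp and Ltf (vertical) against that of S100a8, S100a9, Csf3r and Retnlg (horizontal) in each of the 11 libraries, coloured by group and numbered by replicate. The femoral knockouts lie to the right of the controls of the same number at similar or lower height; early minus late is −4.83 to −4.43 in the femoral knockouts and −3.76 to −2.52 in the femoral controls.

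Pan-leukocyte and phagocyte transcripts also differed between the femoral groups. Ptprc, which encodes CD45 of all white blood cells, was at 186, 138 and 104 CPM in the femoral controls and 336, 325 and 190 CPM in the femoral knockouts (0.99 ± 0.29, adjusted p 0.0920), without overlap. In the carotid artery the Ptprc groups overlapped, at 141 ± 42.6 and 201 ± 51.0 CPM (0.51 ± 0.32, adjusted p 0.508). Relative to Ptprc in the same library, Lcn2 averaged −1.67 log2 units over femoral controls and −0.54 over knockouts, and −2.25 and −0.04 over the carotid groups, without overlap in either vessel. Csf3r relative to Ptprc averaged −2.05 and −1.38 in the femoral groups, also without overlap, and −1.33 and −1.02 in the carotid groups, with overlap. S100a8 relative to Ptprc averaged −2.47 over femoral controls and −2.16 over knockouts, and these ranges overlapped, while carotid controls averaged −2.23 and carotid knockouts −1.62, without overlap. S100a9 relative to Ptprc likewise overlapped in the femoral artery (−1.93 and −1.45) and not in the carotid artery (−1.55 and −0.96). Camp relative to Ptprc averaged −6.61 and −7.63, with all femoral knockouts below all controls, and Mpo −7.16 and −9.10, likewise. Both overlapped in the carotid artery. Ptprc itself was higher in the femoral knockouts, so a gene with no change of its own is lower relative to it. The femoral change of Camp itself was −0.10 ± 0.50 and that of Mpo −0.96 ± 0.53, both with overlapping groups. The share of all genes that do not overlap relative to Ptprc was not computed. Ngp (−5.01 and −5.94) and Ltf (−4.97 and −6.10) relative to Ptprc overlapped in the femoral artery, as did Ly6g and Retnlg. The mean of the 10 genes relative to Ptprc was −4.80 over femoral controls and −4.82 over femoral knockouts, and −4.73 and −4.39 over the carotid groups, overlapping in both vessels.

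Other neutrophil genes were read as lists, chosen with earlier results of these data known. Of all genes tested, 1.84% rose in the femoral and 0.661% in the carotid knockouts, 4.29% rose in the femoral fit with the replicate block, and 10.9% and 7.93% were higher at an unadjusted p under 0.05 in the femoral and carotid comparisons. Changes were positive for 46.9% and 50.5% of all genes in these comparisons. Of 30 genes of the mature neutrophil surface and cytosol, 6 rose in the femoral knockouts and none fell, with 29 positive changes and a median of 1.85. They were Cxcr1, a chemokine receptor; Cd300lf, an inhibitory receptor of myeloid cells; Fpr2, a receptor for formyl peptides; Trem1, an amplifier of myeloid activation; and the stefins Stfa2 and Stfa2l1, cysteine protease inhibitors whose near-identical copies make their counts uncertain. Cd300lf went from 11.2 ± 4.38 to 57.1 ± 23.5 CPM (2.35 ± 0.45, adjusted p 0.0331), Fpr2 from 4.78 ± 2.81 to 25.5 ± 11.7 CPM (2.41 ± 0.48, adjusted p 0.0358) and Trem1 from 5.98 ± 2.26 to 29.2 ± 12.1 CPM (2.29 ± 0.47, adjusted p 0.0384). With the replicate block 19 of the 30 rose. The count was 0 without femoral control replicate 2 or 3 or femoral knockout replicate 1 or 2, 2 without femoral control replicate 1, 3 without carotid control replicate 2, 9 without carotid control replicate 1 or 3, 15 without femoral knockout replicate 3, and 3 with only the femoral groups in the fit. In the carotid artery none of the 30 passed, with 28 positive changes, a median of 0.76 (0.28 to 1.43 with 1 library left out) and 4 at an unadjusted p under 0.05; DESeq2 called none, and 1 passed without carotid control replicate 1.

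Of 12 further genes of the specific and gelatinase granules, or made with them, Ltb4r1, the leukotriene B4 receptor, rose in the femoral knockouts, from 6.21 ± 0.622 to 21.4 ± 5.40 CPM (1.79 ± 0.24, adjusted p 0.00775), and it passed on leaving out any 1 of the 11 libraries. With the block 4 of the 12 rose, 2 passed without carotid control replicate 1 and 5 without femoral knockout replicate 3. The median change was 1.33, and none passed in the carotid artery (median 0.72, or 0.53 to 1.24 with 1 library left out; 2 at an unadjusted p under 0.05, none by DESeq2, and 2 without carotid control replicate 1). The collagenase Mmp8, named after its values were seen, was at 2.81 ± 1.83 and 7.79 ± 4.51 CPM in the femoral groups (1.47, adjusted p 0.196). Of 10 genes of primary granules and promyelocytes, 7 could be tested and none passed in either vessel, with 1 at an unadjusted p under 0.05 in each and medians of 0.54 and 0.07 (0.23 to 0.70 and −0.15 to 0.51 with 1 library left out); 1 of 7 is near the share of all genes at that p. DESeq2 called 1 in each vessel. That gene at an unadjusted p under 0.05 was Gfi1, a repressor that directs granulocyte maturation, at 0.246 ± 0.112 and 0.879 ± 0.14 CPM in the femoral groups (adjusted p 0.0905) and 0.108 ± 0.0752 and 0.840 ± 0.385 CPM in the carotid groups (2.94 ± 0.60, adjusted p 0.0522, and 0.0396 to 0.296 with 1 library left out). Gfi1 is also made by lymphocyte precursors. Elane, Prtn3 and Ctsg, the serine proteases stored with Mpo and named after their values were seen, were at 0.322, 2.09 and 0.324 CPM in the femoral controls and 0.306, 3.37 and 0.066 CPM in the femoral knockouts.

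Of 20 genes of neutrophil growth and recruitment, 19 could be tested, and all 19 changes were positive in the femoral artery, with a median of 1.79. The 3 that rose were Ltb4r1, C5ar1, the receptor for complement C5a (42.0 ± 7.91 to 72.7 ± 8.58 CPM, adjusted p 0.0393), and Alox5ap, which feeds leukotriene synthesis (73.5 ± 12.8 to 136 ± 29.8 CPM, adjusted p 0.0472). With the block 14 rose. Without femoral control replicate 2 or 3 or femoral knockout replicate 1 or 2 only Ltb4r1 passed, 2 passed without femoral control replicate 1 or carotid control replicate 2 or 3, 5 without carotid control replicate 1, 6 without either carotid knockout or with only the femoral groups in the fit, and 8 without femoral knockout replicate 3. In the carotid artery none passed (median 0.50, or −0.048 to 0.95 with 1 library left out; 3 at an unadjusted p under 0.05, 1 by DESeq2). Of 6 subunits of the phagocyte oxidase, which makes superoxide, 3 rose in the femoral artery (Ncf1, Ncf4 and Rac2) and all 6 did with the block; Ncf1 went from 48.4 ± 7.67 to 121 ± 36.5 CPM (adjusted p 0.0332). None of the 6 oxidase genes passed without femoral control replicate 2 or 3 or femoral knockout replicate 1 or 2, 1 without femoral control replicate 1, 2 with only the femoral groups in the fit, and 6 without femoral knockout replicate 3. None of the 6 passed in the carotid artery (1 at an unadjusted p under 0.05, none by DESeq2).

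**Figure D4:**
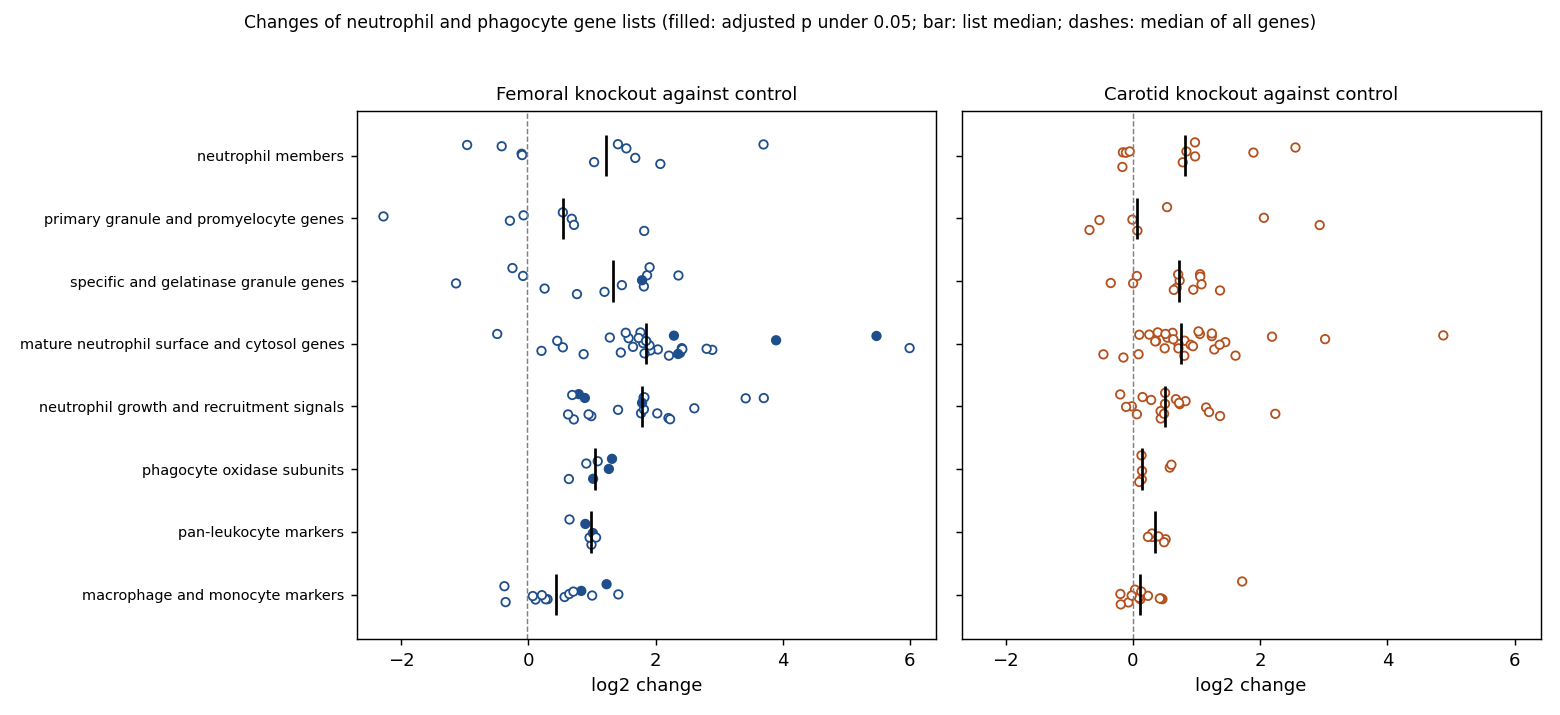
Log2 change in knockout against control arteries of each tested gene of 8 lists, in the femoral (left) and carotid (right) comparison; filled points passed the adjusted p threshold over all genes, bars are list medians and the dashed line is the median of all genes. The medians of the mature neutrophil and recruitment lists are 1.85 and 1.79 in the femoral and 0.76 and 0.50 in the carotid artery.

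Markers of other cells also differed between the groups, and their part in the neutrophil values was not tested. Of 6 pan-leukocyte genes 2 rose in the femoral knockouts (Laptm5 and Coro1a), where 1.84% of all genes rose. All 6 did with the block, where 4.29% of all genes rose. The summed level of the 6 was 615 to 942 CPM in the femoral controls and 1119 to 1702 CPM in the knockouts. Of 14 macrophage and monocyte genes 2 rose there (Ccr2 and Csf1r), and 4 did with the block, with summed levels of 2967 to 3726 and 3720 to 5982 CPM. By edgeR's unadjusted p under 0.05, 6 of 6 pan-leukocyte and 7 of 14 macrophage genes were higher in the femoral knockouts. The same held for 5 of the 10 neutrophil genes and 10.9% of all genes. Positive changes numbered 6 of 6 and 12 of 14 in these 2 lists. Neither list had a call without any single femoral sample except knockout replicate 3. Without carotid control replicate 2 or 3, or with only the femoral groups in the fit, each of these 2 lists had 1 call, 3 pan-leukocyte genes passed without carotid control replicate 1, and without femoral knockout replicate 3 the counts were 6 and 4. No gene of either list passed in the carotid artery, where summed levels were 718 to 1104 and 980 to 1274 CPM for pan-leukocyte and 3776 to 5555 and 4040 to 5497 CPM for macrophage genes; 0 and 3 had an unadjusted p under 0.05, and DESeq2 called none. Adgre1, the macrophage marker F4/80, was named after its values were seen and was at 112 ± 5.51 and 121 ± 18.0 CPM in the femoral groups (0.11, adjusted p 0.757). Skeletal muscle genes summed to 639 to 6080 CPM in the femoral controls and 205 to 1843 CPM in the femoral knockouts, and erythrocyte genes to 2757 to 8253 and 1766 to 3012 CPM; no gene of these lists passed edgeR's test without a block. Of skeletal muscle genes none, and of erythrocyte genes 5, all lower, had an unadjusted p under 0.05. DESeq2 called 0 and 5, and the block 0 and 4. Of all genes, in either direction, 19.5% had such a p, DESeq2 called 8.6% and the block 5.73%. Without a block, edgeR called 2 erythrocyte genes lower without femoral control replicate 3 and 1 without carotid control replicate 1. Smooth muscle genes, which mark the labelled tissue, summed to 7336 to 14963 CPM over the 11 libraries, and keratinocyte genes to 2.90 to 24.6 CPM. No gene of these lists was at 0 in all libraries.

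Across all genes tested with a mean of at least 1 CPM, 14182 outside the 10 were ranked by the root-mean-square difference between their centred log2 CPM and the mean centred profile of the 10. The closest were Dnajb13, a heat shock protein cofactor known from sperm flagella (0.25), Ms4a6d (0.30), Upp1, a uridine phosphorylase (0.31), Pglyrp1, a bactericidal granule protein (0.32), and Nfkbid, a nuclear regulator of NF-κB (0.34). Pyhin1, Irgm1, Bst1, Pmaip1 and Igtp followed at 0.35. For scale, the mean profile itself varied by 0.70 around 0. It was lowest in replicate 3 of both control groups, at −1.20 and −1.15, and highest in femoral knockout replicate 2, at 1.27.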

How the data were processed

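Raw gene counts for 48897 genes in 11 libraries were deposited by the authors as 1 table and no other values. The tools named, per the submitters' processing notes and without versions or roles, are HISAT2 and HTSeq as well as DESeq, DESeq2 and edgeR; a strand setting for the counting is not given in the sources used here. These notes name mm9, but 99.8% of 39064 genes joined by NCBI gene ID overlap their GRCm38 RefSeq position, so positions are given as GRCm38. Symbols altered to dates by a spreadsheet (27 of them) were restored from the gene ID. Gene lengths for per-kilobase levels are those of the table.

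From the counts, edgeR 4.0.16 (R 4.3.3, limma 3.58.1) computed TMM-scaled CPM, log2 CPM with a prior count of 2, and a quasi-likelihood fit of 4 group means to all 11 libraries (7 residual degrees of freedom; filterByExpr kept 21343 genes; common biological coefficient of variation 25.6%). Two-sided p-values were adjusted by the Benjamini-Hochberg method over all genes tested, with a threshold of 0.05; SEs were obtained from the log2 change and its F statistic. The fit was tested on simulated data. A count of 0 was read as allowing 3 counts. Alternatives were DESeq2 1.42.0, RLE size factors, no filter on low counts, only the groups compared, each library left out, and replicate blocks. Tables and figures used Python 3.11.15, pandas 2.3.3 and matplotlib 3.10.9.

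Replicate numbers come from the sample titles. Deviations from the group mean correlated at 0.172, 0.180 and 0.115 across genes between same-numbered femoral control and knockout samples, and at −0.184 to 0.0114 between others, so the numbers were taken to pair the femoral samples, a hint from the data and not the stated design. In the carotid artery the same-numbered values were −0.118 and −0.150, which gave no sign of pairing. The block was still fitted to all 11 libraries, with terms for the carotid numbers as well. Its femoral p-values therefore also rest on the spread of carotid samples paired in this way. It left fewer residual degrees of freedom than the 7 of the fit without a block. The description of carotid knockout replicate 2 numbers it 3.

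The members and lists were chosen with earlier results of these data known. By rule, all members, Nfe2l3 and Ptprc were named; of each other list, up to 4 genes past the threshold per comparison; a list with none gave its 2 genes of smallest p; and the 10 genes most like the members, without predicted genes and immunoglobulin or T cell receptor segments.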

Additional observations from a re-analysis of the deposited data

Results flagged for a closer look

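Kdr, the vascular endothelial growth factor receptor of endothelial cells and a gene of the endothelial marker list, had fitted changes of opposite sign in the 2 vessels, with no overlap between groups in either, though neither change passed edgeR's test (−0.44, adjusted p 0.163 in the femoral and 0.70, adjusted p 0.0957 in the carotid artery). It was at 57.6 ± 5.0 CPM in the femoral controls and 42.6 ± 5.29 CPM in the femoral knockouts (SD, n = 3 each), and at 41.1 ± 10.3 CPM (n = 3) and 66.8 ± 1.24 CPM (n = 2) in the carotid groups. The carotid effect exceeded the femoral effect by 1.14 on the log2 scale, and this difference had an adjusted p of 0.313 in edgeR's quasi-likelihood test. Of all genes, 12.1% were wholly below in the femoral and 16.4% wholly above in the carotid knockouts. Kdr was not alone in its list. Of the 6 endothelial genes, 5 had negative femoral changes (median −0.33) and 5 had positive carotid changes (median 0.22). All 6 differences between vessels were positive (median 0.49), and none passed.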

How the results depend on the processing

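RLE size factors moved no count by more than 1.5 times. The femoral count of the 10 genes was 0 and became 3 under DESeq2 and without a filter, and 4 under each of the 3 replicate blocks (numbers within a vessel, shared across vessels, or with the description's number). The 4 were S100a8, S100a9, Lcn2 and Csf3r under the first 2 blocks. With the description's number they were S100a9, Lcn2, Csf3r and Ly6g, so S100a8 was no longer called. Leaving out 1 library gave a femoral count of 0 to 3. All genes called there were 535, and 1834 under DESeq2, 1121 without a filter, 1224, 1463 and 1261 under the 3 blocks, and 78 to 1317 with 1 library left out. In the carotid artery the count of the 10 became 1, Lcn2, under DESeq2, no filter and each block; all genes went from 197 to 990, 444 and, with the block within a vessel, 78, to 26 with only the groups compared, and to 60 to 233 with 1 library left out. For the difference between vessels, 1 call became 171 (DESeq2), 17 (no filter), 9, 29 and 3 (blocks) and 0 to 3 (1 library left out). Between control vessels the shared block called 1 of the 10, Csf3r (0.70, adjusted p 0.0122 by edgeR), and 7.44% of all genes. The labels do not say whether replicate numbers pair samples across vessels, and this was not tested. Same-numbered controls correlated at 0.108, −0.0428 and 0.140 across vessels, and other control pairs at −0.149 to 0.0284. For knockouts the same-numbered values were 0.131 and 0.104, and the others −0.131 to 0.0289. Between control vessels DESeq2 called 2314 genes against 1326 (685 to 1408 with 1 library left out). Between knockout vessels the counts were 1047, 2089 (DESeq2), 578 (only the groups compared) and 459 to 1182. Signs turned for Ngp (femoral 0.046, 0.11 and 0.046 under the 3 blocks; carotid 0.29 and the vessel difference 0.24 with the description's number), Camp (0.30 and 0.34) and Ltf (carotid 0.52 with the description's number; vessel difference −0.53 and −0.37 under the other 2 blocks); the cause was not tested. With 1 library left out, femoral changes ran from −0.79 to 0.80 (Ngp), −0.42 to 0.28 (Camp) and −0.87 to 0.60 (Ltf), carotid changes from −0.80 to 0.28 (Ngp), −0.56 to 0.25 (Camp), −0.88 to 0.38 (Ltf), −0.35 to 0.55 (Mpo) and −5.65 to 5.13 (Krt14), and vessel differences from −0.81 to 0.24 (S100a8), −0.97 to 0.64 (Ngp), −0.47 to 0.34 (Camp), −0.72 to 0.80 (Ltf) and −0.65 to 0.46 (Retnlg). Ly6g, with 0 to 64 counts, is limited by depth. The block was not run with a library left out.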

Other observations

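T cell transcripts were higher in the knockout arteries of both vessels, and B cell transcripts differed in the carotid comparison. Of all genes tested, 1.84% rose in the femoral and 0.661% in the carotid knockouts. Of 8 T cell genes 3 rose in the femoral artery (Cd3e, Cd5 and Cd2; median 1.48) and 5 in the carotid artery (Cd3e, Cd5, Cd3d, Trac and Cd8a; median 2.42). Cd3e, a chain of the T cell receptor complex, went from 1.71 ± 0.656 to 6.03 ± 0.50 CPM in the femoral groups (adjusted p 0.0107 by edgeR, 0.0655 without femoral control replicate 2) and from 0.851 ± 0.164 to 5.67 ± 0.32 CPM in the carotid groups (adjusted p 0.00258, at most 0.0163 with any library left out). The summed T cell level was 14.0 to 26.5 CPM in the femoral controls, 45.7 to 60.0 CPM in the femoral knockouts, 8.51 to 13.6 CPM in the carotid controls and 52.2 to 60.1 CPM in the carotid knockouts, without overlap in either vessel. The femoral T cell count was 0 without femoral control replicate 2, 1 without femoral control replicate 3 or femoral knockout replicate 1 or 2, and 5 without carotid control replicate 1; the carotid count was 2 without carotid control replicate 3, 1 without carotid knockout replicate 2 or with only the carotid groups in the fit, and 3 without carotid control replicate 2 or carotid knockout replicate 1. Of 5 B cell genes, Cd79b of the B cell receptor rose in the carotid artery (1.79 ± 0.22 to 7.58 ± 3.87 CPM, adjusted p 0.0416, and up to 0.221 with 1 library left out, a call lost in 9 of the 11 omissions; 3 B cell genes passed without femoral control replicate 3, and 2 without carotid knockout replicate 1 or femoral knockout replicate 3). In the femoral artery none of the 5 B cell genes passed or had an unadjusted p under 0.05, DESeq2 called none, and their summed levels overlapped, with means of 5.29 ± 2.16 CPM in controls and 7.78 ± 2.92 CPM in knockouts. Of 8 tested eosinophil, basophil and mast cell genes, Ccr3 and Siglecf, both of eosinophils, rose in the femoral artery (adjusted p 0.0317 and 0.0343 by edgeR). Neither passed without any 1 of the femoral samples except knockout replicate 3, and 1 of the 8 passed with the replicate block. The list as a whole was divided, with 4 positive and 4 negative femoral changes and a median of −0.044. Epx, another eosinophil gene, had too few counts to be tested.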
